A study of Homo sapiens with 15 samples.

Results

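The 9 genes described here encode components and regulators of complement: C1R, C1S, C3, CFB, CFD, SERPING1, CD46, CD55 and CD59. They were chosen by gene symbol, and all 9 were found in both deposited tables, among 17138 genes listed in either one. The fibroblasts are MRC5, a line from human lung, and the cancer cells are small cell lung cancer (SCLC) lines, of which H69 is neuroendocrine (NE) and H196 is non-NE. MRC5 cells were mono-cultured (MRC5_Mo) or co-cultured with H69 (MRC5_coH69) or H196 cells (MRC5_coH196), and H196 cells were mono-cultured (H196_Mo) or co-cultured with MRC5 cells (H196_Co). The partners shared medium for a week across a porous insert, each cell type is a single line, and the labels name no other treatment or genetic change in the 5 groups. RNA of 3 libraries per group was sequenced after oligo(dT) capture, and nothing in the labels says whether the libraries of a group came from separate cultures, so the p-values measure only the spread between these libraries.

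Complement is a cascade of blood and tissue proteins that marks and damages targets. In the classical branch the proteases C1r and C1s are switched on when C1q binds, and they cleave C4 and C2. The alternative branch amplifies the deposition of C3 through factor B and its activating protease factor D. C1 inhibitor, encoded by SERPING1, inactivates C1r and C1s, whereas CD46, CD55 and CD59 sit on the cell surface and protect the cell that carries them. The liver makes most plasma complement, but fibroblasts are a known local source of C1r, C1s and C1 inhibitor.

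A start-site window was found for 6 of the 9 genes in RefSeq (GRCh38.p14), namely C1R, CFB, CFD, CD46, CD55 and CD59, and each was read over the 250 bases before the annotated start. C1S, C3 and SERPING1 had no entry. The windows below are those of CFB, whose level did not pass the test in co-culture, and of CD59 and CFD, which rose in MRC5_coH196 and in H196_Co cells. Capitals mark matches to 2 copies of GAAA with 2 bases between them, a pattern of interferon response elements, and to TTCNNNGAA, a pattern bound by STAT proteins. Each run is written 5′ to 3′ on the strand of its gene. CFB lies at chr6:31945845-31946094 (plus strand), CD59 at chr11:33736480-33736729 (minus strand) and CFD at chr19:859414-859663 (plus strand).
CFB: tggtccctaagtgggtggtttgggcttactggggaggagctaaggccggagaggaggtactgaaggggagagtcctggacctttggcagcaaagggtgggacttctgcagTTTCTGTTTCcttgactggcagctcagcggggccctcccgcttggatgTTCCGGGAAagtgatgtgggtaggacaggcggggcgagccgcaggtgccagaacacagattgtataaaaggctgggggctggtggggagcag
CD59: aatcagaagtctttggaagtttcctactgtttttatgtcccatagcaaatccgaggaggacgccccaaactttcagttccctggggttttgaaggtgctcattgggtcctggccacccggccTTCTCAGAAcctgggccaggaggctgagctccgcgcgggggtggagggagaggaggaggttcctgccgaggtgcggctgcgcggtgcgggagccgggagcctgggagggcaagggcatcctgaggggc
CFD: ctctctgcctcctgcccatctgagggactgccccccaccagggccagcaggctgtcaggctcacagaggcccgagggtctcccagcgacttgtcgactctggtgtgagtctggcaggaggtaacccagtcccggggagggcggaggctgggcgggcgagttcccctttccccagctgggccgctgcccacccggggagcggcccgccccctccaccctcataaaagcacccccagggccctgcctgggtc

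The CFB window held one match of each kind, 140 and 92 bases before the start. The CD59 window held the STAT pattern 128 bases before the start, which also lies in a second, overlapping CD59 window, and the CFD window held no match. Of 35116 such windows, the interferon pattern was found in 3.02% and TTCNNNGAA in 6.57%, on either strand. Searches for GGGA and TTCC with 2 bases between them, an NF-κB type pattern (1.4% of windows), and for ACGTG, the core of the hypoxia element (18.5% of windows), gave no match in the 3 windows shown. The TTCNNNGAA pattern also occurred 86 bases before the start in one of the C1R windows, and ACGTG 75 bases before the start in another CD59 window. The windows of CD46 and CD55 held none of the 4 patterns. A match is a run of letters and not a measured binding site.

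Expected counts per library summed to between 16073597 and 19170560, so that 3 counts, the most that a count of 0 allows, correspond to 0.156 to 0.187 CPM, counts scaled to the total of the library. Fibroblast markers were high in the MRC5 libraries, with a summed level of 27062 to 30106 CPM in MRC5_Mo and 30969 to 31991 CPM in MRC5_coH69. The sum was 13027 to 13770 CPM in MRC5_coH196, where all 9 markers were still detected. That difference lay mainly in the collagen genes COL1A1 (4158 to 4564 CPM against 14218 to 15413 CPM in MRC5_Mo), COL1A2 (5531 to 5884 against 8763 to 10070 CPM) and COL3A1 (265 to 298 against 1263 to 1473 CPM), and THY1 was also lower (547 to 556 against 643 to 662 CPM). PDGFRB (444 to 474 against 316 to 343 CPM) and FBLN1 (209 to 231 against 179 to 190 CPM) were higher in MRC5_coH196 without overlap, and DCN, LUM and PDGFRA overlapped between the groups. In H196 libraries 8 of the 9 were listed and summed to between 68.5 and 83.6 CPM. Nearly all of that came from FBLN1, at 66.2 to 71.2 CPM in H196_Mo and 75.1 to 80.5 CPM in H196_Co, without overlap. COL1A2 was at 0 counts in every H196_Mo library and at most 1 count in H196_Co. Markers of hepatocytes summed to at most 0.106 CPM in MRC5 libraries. Of 8 NE markers 4 were listed in MRC5 libraries, with a sum of 0.646 to 1.5 CPM. In H196 libraries 6 were listed and summed to 64.7 to 69.7 CPM, mainly from CHGB, SYP and DLL3. The 4 non-NE markers summed there to 5478 to 6131 CPM. The leukocyte list summed to 107 to 115 CPM in MRC5_coH196 against 73.3 to 82.1 CPM in MRC5_Mo, nearly all of it from CD68, while PTPRC was at 0 in MRC5_coH196. The part that these lists play in the results below was not tested.

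When grown alone, the fibroblasts held more transcript of 8 of the 9 genes than H196 cells, and CFD was the exception. In one model of all 15 libraries, 42.6% of 13585 genes were higher in MRC5_Mo than in H196_Mo and 44% were lower (edgeR's quasi-likelihood test with Benjamini-Hochberg adjusted p under 0.05). On log2(FPKM + 1) by limma 33.2% of the calls were higher, with a median of all genes of -0.34. Each of these libraries comes from a single line grown alone. Whether fewer of its cells held a transcript or each cell held less cannot be told from bulk RNA. Levels are given below in FPKM, which the authors scaled per library and per length of transcript.

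The classical proteases showed the widest separation between the lines. C1R (gene ID 715, on chromosome 12), which encodes the protease that activates C1s, was at 96.4, 77.2 and 74.1 FPKM in MRC5_Mo libraries and at 0.71, 0.73 and 0.84 FPKM in H196_Mo. C1S (gene ID 716, GRCh38.p13 chr12:7060717-7071032), whose product cleaves C4 and C2, was at 89.6, 74.1 and 67.6 FPKM against 0.69, 0.58 and 0.67 FPKM. The log2 differences were 7.20 (standard error, SE, 0.12, adjusted p = 2.69e-28) for C1R and 7.33 (SE 0.12, adjusted p = 2.30e-28) for C1S. Within an MRC5 library the pair kept close to each other, with a log2 ratio of C1S to C1R between -0.23 and -0.06 in all 9.

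SERPING1 (gene ID 710, chr11:57597685-57614848), the inhibitor of both proteases, was at 19.3, 19.7 and 20.0 FPKM in MRC5_Mo and at 0.40, 1.0 and 0.60 FPKM in H196_Mo, a log2 difference of 5.30 (SE 0.15, adjusted p = 5.70e-23). C3 (gene ID 718, chr19:6677704-6720650), the protein on which all branches converge, was low in both lines, with 58, 43 and 35 counts in MRC5_Mo and 1, 3 and 6 counts in H196_Mo. Summed over libraries, its rate was 12.3 times as high in MRC5_Mo (exact 95% interval 6.49 to 26.2, counting error only). CFB (gene ID 629, on chromosome 6), which encodes factor B, had 81, 49 and 48 counts against 1 in each H196_Mo library, a rate ratio of 53.6 (exact 95% interval 18.1 to 263). C3, at 1 to 6 counts, and CFB were thus near or under the floor of 3 counts in H196_Mo.

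CFD (gene ID 1675, on chromosome 19), the gene of factor D, ran the other way. It was at 1.46, 0.94 and 0.59 FPKM in MRC5_Mo and at 9.47, 11.7 and 8.50 FPKM in H196_Mo, with no overlap and a log2 difference of -2.86 (SE 0.21, adjusted p = 3.91e-13). The surface regulators were present in both lines with smaller differences. CD59 (gene ID 966, chr11:33703010-33736479), which blocks assembly of the membrane attack complex, was at 121, 119 and 122 FPKM in MRC5_Mo against 47.4, 48.5 and 48.9 FPKM, a log2 difference of 1.76. CD55 (gene ID 1604, chr1:207321674-207365421), which speeds the decay of the convertases, was at 17.1, 14.6 and 16.8 FPKM against 7.52, 5.86 and 6.97 FPKM, a log2 difference of 1.51. CD46 (gene ID 4179, chr1:207752038-207795516), a cofactor for cleavage of C3b and C4b, was at 44.6, 43.2 and 42.7 FPKM against 35.2, 31.1 and 35.4 FPKM, a log2 difference of 0.81. Adjusted p-values for these 3 were 4.70e-23, 8.47e-16 and 2.50e-13.

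**Figure D1:**
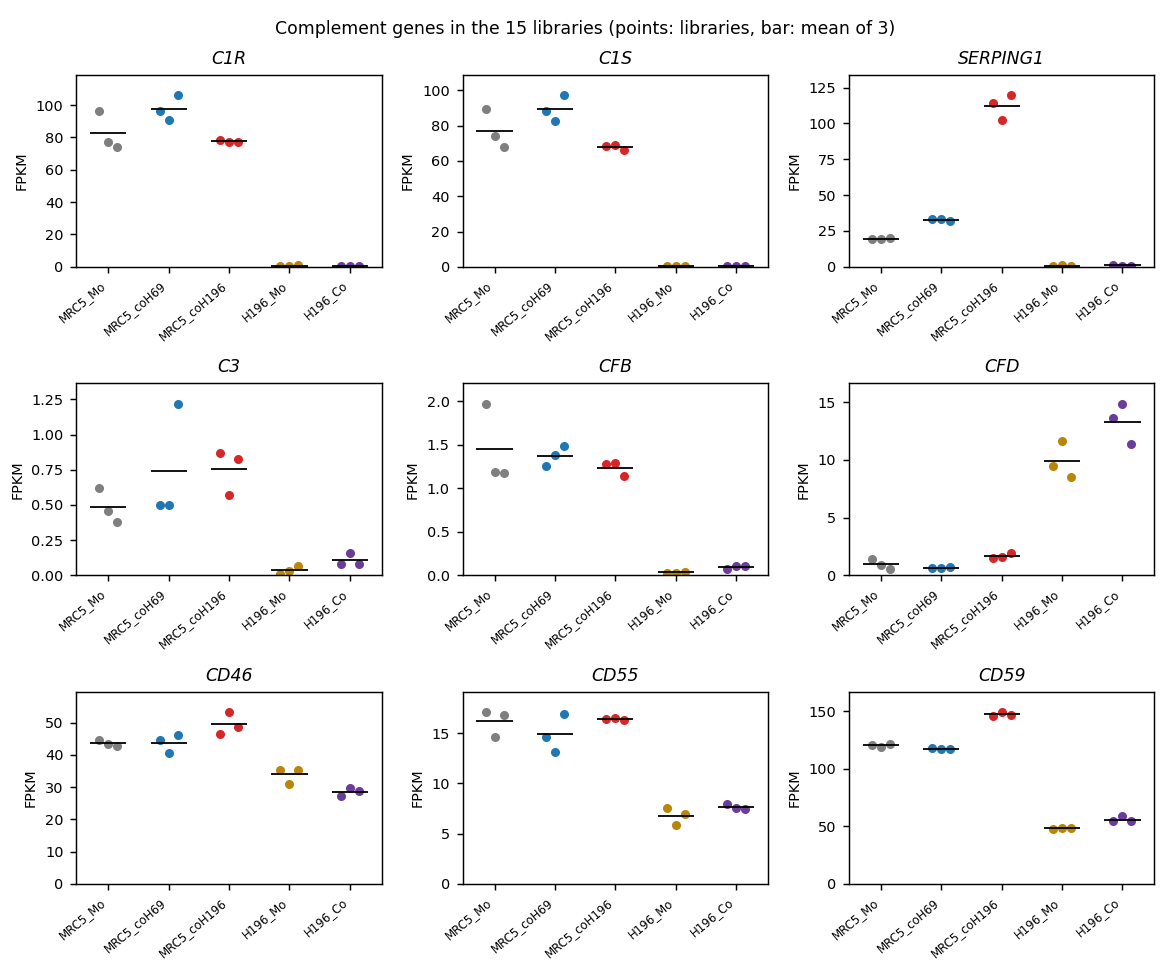
Level of each of the 9 genes in FPKM (vertical axes, linear and starting at 0, scaled per gene) in the 15 libraries of the 5 groups; points are libraries and bars are means of 3. SERPING1 stands at 102 to 120 FPKM in MRC5_coH196 against 19.3 to 20.0 FPKM in MRC5_Mo, C1R and C1S stay within the range of 65.9 to 106 FPKM in all MRC5 libraries, and CFD is the only one of the 9 that is higher in the H196 libraries.

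Ordered by FPKM, CD59 ranked first in each of the 5 groups. In MRC5_Mo it was followed by C1R and C1S, whose libraries overlapped, then by CD46, SERPING1 and CD55, each apart from the next. CFB, CFD and C3 came last with overlapping neighbours. In MRC5_coH196 the order was CD59, SERPING1, C1R, C1S, CD46, CD55, CFD, CFB and C3, and no neighbours overlapped. In MRC5_coH69 SERPING1 kept the fifth place, and C1R and C1S overlapped. In H196_Mo CD59 was followed by CD46, CFD and CD55, and the libraries of C1R, SERPING1 and C1S overlapped with their neighbours at no more than 1.0 FPKM.

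Co-culture with H196 cells raised 5 of the 9 genes in the fibroblasts, SERPING1, CFD, C3, CD59 and CD46, and lowered none of them. Across all 12819 genes tested in MRC5, 37.2% were higher and 37.1% lower in MRC5_coH196 than in MRC5_Mo (edgeR's quasi-likelihood test, adjusted p under 0.05), but on log2(FPKM + 1) by limma 34.8% of the calls were higher. Genes called DEGs, with an absolute log2 fold change above 0.58 as well, made up 31.9% of all genes and were 3 of the 9, SERPING1, CFD and C3. The median log2 fold change of the 9 was 0.36, beside -0.00 for all genes tested.

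SERPING1 stood at 114, 102 and 119.7 FPKM in MRC5_coH196, from 2924 to 3537 counts per library. All 3 libraries lay far above the MRC5_Mo libraries and above every other library of the series. The log2 fold change was 2.69 (SE 0.061, adjusted p = 3.81e-22), which is 6.43-fold, and it ranked 124 of the 12819 genes when ordered from the highest rise. H196 cells held at most 1.28 FPKM of SERPING1 in either state.

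The proteases that SERPING1 restrains did not pass the test. C1R was at 78.3, 77.2 and 77.2 FPKM, within the range of MRC5_Mo, and the log2 fold change was 0.08 (95% interval -0.05 to 0.21, adjusted p = 0.275). Without replicate 1 of MRC5_Mo, the highest of that group, the value was 0.21 with an adjusted p of 0.00129. C1S was at 68.2, 69.1 and 65.9 FPKM, and the log2 fold change was -0.01 (95% interval -0.15 to 0.12, adjusted p = 0.887). The same MRC5_Mo library held the highest level of C1R, C1S, C3, CFB and CFD in its group.

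The FPKM ratio of SERPING1 to C1R describes the balance of inhibitor and protease transcripts within a library. It was 1.46, 1.33 and 1.55 in MRC5_coH196, 0.345, 0.369 and 0.300 in MRC5_coH69 and 0.200, 0.255 and 0.270 in MRC5_Mo. The inhibitor transcript exceeded that of C1R in all 3 MRC5_coH196 libraries and in no other MRC5 library. In H196 cells the ratio was 2.42, 1.29 and 1.55 in H196_Co and 0.563, 1.37 and 0.714 in H196_Mo, with overlap. There SERPING1 was at no more than 1.28 FPKM and C1R at no more than 0.84 FPKM. The log2 ratio averaged 0.53 ± 0.11 (SD, n = 3) in MRC5_coH196, -1.57 ± 0.15 in MRC5_coH69 and -2.06 ± 0.23 in MRC5_Mo, and no pair of these groups overlapped. The differences were 2.59 for MRC5_coH196 and 0.49 for MRC5_coH69 against MRC5_Mo. With 3 libraries per group a two-sided exact permutation test cannot go below 0.1, which each of these comparisons reached, and the adjusted value over 30 ratio comparisons was 0.2.

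**Figure D2:**
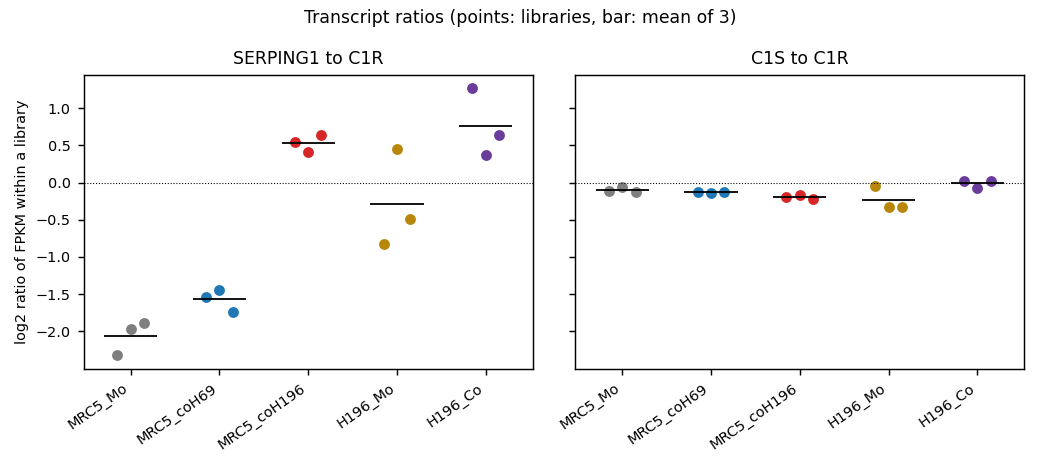
Log2 ratio of FPKM within a library (vertical axis, shared) for SERPING1 to C1R on the left and C1S to C1R on the right, by group; points are libraries, bars are means of 3 and the dotted line marks equal levels. The 3 MRC5_coH196 libraries lie between 0.41 and 0.63 for SERPING1 to C1R and the MRC5_Mo libraries between -2.32 and -1.89, whereas C1S to C1R lies between -0.23 and -0.06 in the 9 MRC5 libraries.

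The alternative branch genes rested on few counts. CFD had 26, 27 and 34 counts in MRC5_coH196 against 25, 16 and 10 in MRC5_Mo, a log2 fold change of 0.92 (SE 0.27, adjusted p = 0.00403). In FPKM the groups stood at 1.49 to 1.96 against 0.59 to 1.46, so the gap between them was narrow, and on log2(FPKM + 1) the value was 0.45. H196 cells, the partner in this co-culture, held 11.4 to 14.9 FPKM of CFD, and whether RNA of the partner adds to the MRC5 value was not tested. C3 had 82, 52 and 79 counts against 58, 43 and 35, and the groups overlapped in counts and in FPKM. In CPM as scaled for the test they only just stood apart, at 2.99 against 2.96 CPM. Its log2 fold change was 0.80 (SE 0.27, adjusted p = 0.00947), and it was 0.69 with an adjusted p of 0.0557 without replicate 1 of MRC5_coH196. On log2(FPKM + 1) it was 0.24 with an adjusted p of 0.127 by limma. CFB had 52, 52 and 48 counts against 81, 49 and 48, a log2 fold change of -0.07 (95% interval -0.44 to 0.30, adjusted p = 0.749).

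Of the surface regulators, CD59 was at 146, 149 and 146 FPKM in MRC5_coH196, with every library above every MRC5_Mo library. Its log2 fold change was 0.46 (SE 0.038, adjusted p = 4.53e-11), or 1.38-fold. CD46 was at 46.6, 53.2 and 48.7 FPKM, also without overlap, and the log2 fold change was 0.36 (SE 0.049, adjusted p = 4.58e-07). Both values moved by more than 1.5 times on log2(FPKM + 1), to 0.29 and 0.18, where they still passed the test. CD55 was at 16.4, 16.5 and 16.3 FPKM, inside the range of MRC5_Mo in FPKM. In CPM as scaled for the test, its libraries lay above those of MRC5_Mo (28.0, 29.3 and 28.8 against 27.3, 23.7 and 27.5 CPM). The log2 fold change of CD55 was 0.13 (95% interval -0.00 to 0.27, adjusted p = 0.0882).

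Co-culture with H69 cells raised 3 of the 9 genes, SERPING1, C1R and C1S, and lowered none, where 3.78% of all genes tested were higher and 2.93% lower. SERPING1 was the only DEG of the 9, where DEGs made up 0.554% of all genes. This comparison shares the MRC5_Mo libraries with the one above. SERPING1 stood at 33.2, 33.6 and 31.8 FPKM, above all MRC5_Mo libraries and below all MRC5_coH196 libraries. The log2 fold change was 0.75 (SE 0.066, adjusted p = 2.36e-08), which is 1.68-fold, and it ranked 95 of 12819 by size of rise.

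C1R was at 96.2, 91.0 and 106 FPKM in MRC5_coH69, a log2 fold change of 0.25 (SE 0.067, adjusted p = 0.0213). C1S was at 88.0, 82.3 and 97.3 FPKM, a log2 fold change of 0.22 (SE 0.068, adjusted p = 0.0475). Both groups overlapped with MRC5_Mo through its replicate 1. Neither call held with a DESeq2 Wald test, where the adjusted p-values were 0.194 and 0.305. On log2(FPKM + 1) by limma they were 0.14 and 0.21. The C1S call was also lost with DESeq2 size factors (adjusted p = 0.0511) and with only the groups compared (adjusted p = 0.0639). Both calls were also lost when replicate 1 or 3 of MRC5_coH69, or replicate 2 or 3 of MRC5_Mo, was left out, with log2 fold changes of 0.26, 0.19, 0.20 and 0.18 for C1R and 0.23, 0.16, 0.19 and 0.13 for C1S.

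The other 6 genes did not pass the test in MRC5_coH69. C3 had 47, 46 and 113 counts, so that replicate 3 alone exceeded the MRC5_Mo libraries, and the log2 fold change was 0.61 (adjusted p = 0.201), or 0.05 without that library. CFD had 11, 11 and 12 counts, a log2 fold change of -0.57 (95% interval -1.23 to 0.09, adjusted p = 0.369). It was -0.19 without replicate 1 of MRC5_Mo and -0.84 without replicate 3, and -0.24 on log2(FPKM + 1). CD59 was at 118, 117 and 117 FPKM and CD46 at 44.5, 40.6 and 46.1 FPKM. Their 95% intervals of log2 fold change were -0.10 to 0.05 and -0.08 to 0.11. CD55 was at 14.6, 13.1 and 16.9 FPKM, with an interval of -0.28 to -0.00 and an adjusted p of 0.267, and CFB had 52 to 61 counts with an interval of -0.43 to 0.29.

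**Figure D3:**
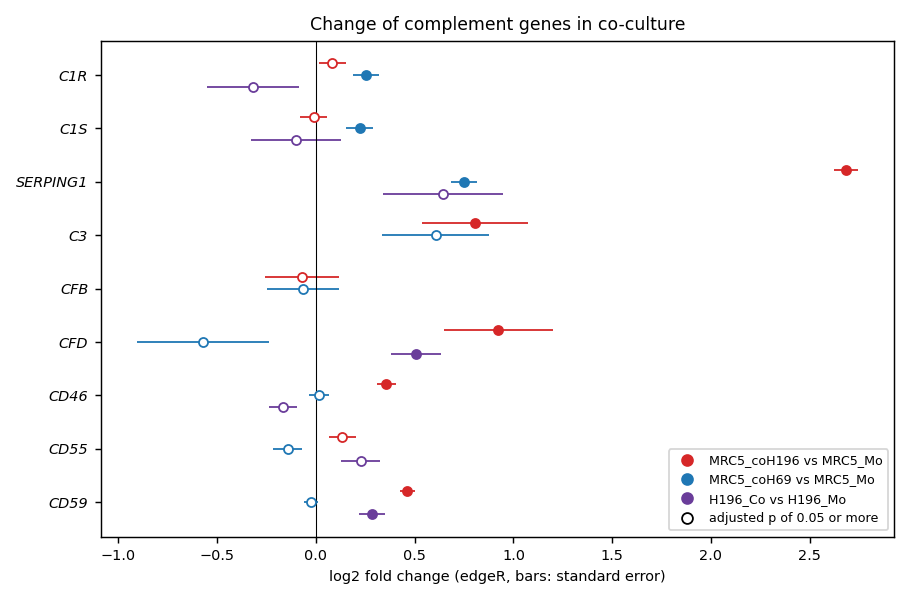
Log2 fold change by edgeR (horizontal axis) with its SE for each of the 9 genes in MRC5_coH196 and MRC5_coH69 against MRC5_Mo and in H196_Co against H196_Mo; filled points passed an adjusted p of 0.05, and CFB and C3 were not tested in H196. SERPING1 lies at 2.69 with H196 cells and at 0.75 with H69 cells as partner, and every other filled point lies between 0.22 and 0.92.

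The direct comparison of the partners gave 5 genes higher and 2 lower in MRC5_coH196 than in MRC5_coH69, where 35.7% and 36.6% of all genes were higher and lower. On log2(FPKM + 1) by limma 33.3% of the calls were higher. SERPING1 differed by 1.94 on the log2 scale (SE 0.057, adjusted p = 8.35e-20) and CFD by 1.49 (SE 0.30, adjusted p = 8.99e-05). On log2(FPKM + 1) CFD differed by 0.69. The surface regulators were all higher with H196 cells as partner, CD59 by 0.49 (adjusted p = 2.04e-11), CD46 by 0.34 (adjusted p = 1.06e-06) and CD55 by 0.28 (adjusted p = 0.00127). The libraries of CD59 and CD46 did not overlap between the groups, while those of CD55 did in FPKM, and on log2(FPKM + 1) CD55 was 0.14 with an adjusted p of 0.144 by limma. On that scale CD46 was 0.17 and CD59 0.33, and both still passed.

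C1S and C1R were lower in MRC5_coH196 than in MRC5_coH69, with log2 differences of -0.23 (adjusted p = 0.00363) and -0.17 (adjusted p = 0.0252) and no overlap in FPKM. On log2(FPKM + 1) they were -0.39 and -0.33, and both passed by limma. Neither passed a DESeq2 Wald test (adjusted p = 0.0684 and 0.198). The C1R call was lost without replicate 2 or 3 of MRC5_coH196 or replicate 3 of MRC5_coH69, where the log2 difference was -0.15, -0.17 and -0.11. C3 differed by 0.20 (adjusted p = 0.485), and by 0.76 (adjusted p = 0.00372) without replicate 3 of MRC5_coH69. CFB differed by -0.00 (95% interval -0.38 to 0.37).

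In H196 cells, co-culture with MRC5 cells raised 2 of the 7 genes that passed the filter on low counts, CFD and CD59, and lowered none, where 12% of 12806 genes were higher and 7.78% lower. That balance turned on log2(FPKM + 1) by limma, where 36.4% of the calls were higher. CFD was at 13.7, 14.9 and 11.4 FPKM in H196_Co against 9.47, 11.7 and 8.50 FPKM in H196_Mo. The groups touched in FPKM, since the lowest H196_Co library lay below the highest H196_Mo library. In CPM as scaled for the test they stood narrowly apart, at 10.8 against 10.5 CPM. The log2 fold change was 0.51 (SE 0.13, adjusted p = 0.00895), and it was 0.41 with an adjusted p of 0.0506 without replicate 3 of H196_Mo. CD59 was at 54.3, 58.8 and 54.3 FPKM against 47.4 to 48.9 FPKM, without overlap, and its log2 fold change was 0.28 (SE 0.067, adjusted p = 0.00525).

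SERPING1 in H196_Co had 34, 22 and 23 counts against 10, 27 and 16, with overlap and a log2 fold change of 0.64 (SE 0.30, adjusted p = 0.144). Without replicate 2 of H196_Mo it was 1.06 with an adjusted p of 0.0352. CD46 was at 27.3, 29.7 and 28.7 FPKM against 35.2, 31.1 and 35.4 FPKM, with every H196_Co library below every H196_Mo library. Its log2 fold change of -0.17 did not pass the test (adjusted p = 0.112), though on log2(FPKM + 1) it was -0.24 with an adjusted p of 0.0312 by limma. CD55 was at 7.96, 7.51 and 7.40 FPKM against 7.52, 5.86 and 6.97 FPKM, a log2 fold change of 0.23 (adjusted p = 0.113).

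C1R and C1S, which the MRC5 partner held at 65.9 FPKM or more, were low in H196_Co. C1R had 20, 24 and 21 counts against 25, 28 and 32, a log2 fold change of -0.32 (95% interval -0.77 to 0.14). C1S had 22, 26 and 24 counts against 27, 25 and 29, a log2 fold change of -0.10 (95% interval -0.55 to 0.35). Neither rose in the H196 libraries of the co-culture. C3 had 7, 13 and 7 counts against 1, 3 and 6, a rate ratio of 2.69 (exact 95% interval 1.26 to 6.22, counting error only). CFB had 2, 4 and 4 counts against 1 in each library, a ratio of 3.32 (exact 95% interval 0.854 to 18.8). Both were under the filter and were not tested between the groups.

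The change in MRC5 cells beside H196 cells was compared with that in H196 cells beside MRC5 cells, in a joint model of the 15 libraries. In the paper's set-up, inducing cells sat on the insert and induced cells in the well. No label says that MRC5_coH196 and H196_Co cells came from a shared culture. The change was larger in MRC5 cells for SERPING1, by 2.02 on the log2 scale (SE 0.32, adjusted p = 5.76e-06), and for CD46, by 0.50 (SE 0.082, adjusted p = 1.28e-05), where 24.1% of all genes were called in that direction, 27.1% in the other and 51.2% in either. The direction of CD46 was upward in MRC5 cells and its H196 value was -0.17. CD59 differed by 0.15 (adjusted p = 0.0647), and this passed the test without any one of the 3 MRC5_coH196 libraries, without replicate 2 of H196_Co or without replicate 1 of H196_Mo, at 0.18 to 0.21. It also passed with DESeq2 size factors (0.20, adjusted p = 0.0156), with a DESeq2 Wald test (0.20, adjusted p = 0.000784) and with at least 10 counts in every library (0.18, adjusted p = 0.0234). CFD differed by 0.39 (95% interval -0.22 to 1.01, adjusted p = 0.312), so that its rise in MRC5 cells was not shown to exceed that in H196 cells. C1R, C1S, CD55, C3 and CFB did not pass either. C3 and CFB, under the filter in H196 cells, entered this model only through their MRC5 counts, so it cannot compare their responses.

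A wider list of 43 complement genes placed these changes beside the rest of the system, and 14 of the 29 listed in the MRC5 table passed the filter on low counts. In MRC5_coH196 cells 1 was higher and 7 were lower, beside 37.2% higher and 37.1% lower among all genes tested, and the median log2 fold change was -0.28. C7, a component of the membrane attack complex, had 288, 331 and 318 counts against 138, 142 and 114 in MRC5_Mo. Its log2 fold change was 1.41 (SE 0.11, adjusted p = 2.56e-11), and no libraries overlapped. C1QBP, a largely mitochondrial protein that can bind C1q, was at 57.2, 55.5 and 50.8 FPKM against 121, 123 and 124 FPKM, a log2 fold change of -1.0 (adjusted p = 2.30e-15). SUSD4, a membrane regulator of complement, had 3, 3 and 4 counts against 10, 15 and 13, a log2 fold change of -1.73 (adjusted p = 0.00104).

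In MRC5_coH69 cells, where 3.78% of all genes were higher and 2.93% lower, none of the 14 was higher and 1 was lower, CLU, which encodes clusterin and is named here after its value of -0.30 (adjusted p = 0.00078) was seen. In H196_Co cells 2 of 10 were higher and none was lower, beside 12% and 7.78% of all genes. C2, which encodes the substrate of C1s that forms the classical convertase, had 18, 24 and 28 counts against 8, 13 and 7, a log2 fold change of 1.38 (SE 0.32, adjusted p = 0.00465). C1RL, a protease related to C1r, was 0.27 (adjusted p = 0.0269) and is likewise named after its value was seen. C4A and C4B are near-identical, and counts can be split between them. C1QA, C1QB, C1QC and other genes of the list, 14 for MRC5 and 18 for H196, were not listed for that cell line. They have no value here.

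**Figure D4:**
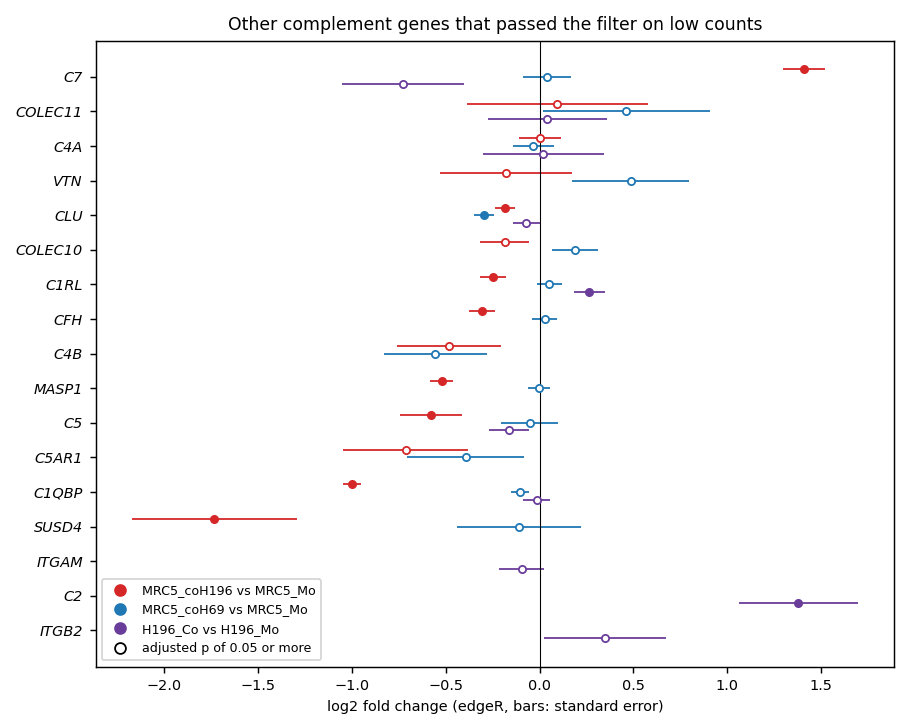
Log2 fold change by edgeR (horizontal axis) with its SE for the genes of the wider complement list that passed the filter on low counts in at least one cell line; filled points passed an adjusted p of 0.05. In MRC5_coH196 cells C7 lies at 1.41 and SUSD4 at -1.73, and in H196_Co cells C2 lies at 1.38.

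Genes known to control complement transcription were followed as a list of 18, of which 17 were tested in MRC5. In MRC5_coH196 cells 10 were higher and 6 lower, beside 37.2% and 37.1% of all genes. In MRC5_coH69 cells 5 were higher and 0 lower, beside 3.78% and 2.93%. In H196_Co cells 5 of 16 were higher and 1 was lower, beside 12% and 7.78%. The transcription factor gene CEBPB rose by a log2 fold change of 1.25 (adjusted p = 9.94e-17) in MRC5_coH196 and of 0.59 (adjusted p = 0.000979) in H196_Co cells. OSMR, the gene of the oncostatin M receptor, was 1.22 (adjusted p = 4.04e-17) in MRC5_coH196 and 0.16 (adjusted p = 0.0431) in MRC5_coH69 cells. NFKB1 was -1.16 (adjusted p = 7.36e-15) in MRC5_coH196 cells. RELA, another NF-κB gene of the list, went the other way at 0.71 (adjusted p = 2.26e-12) and is named after its value was seen. IRF1, an interferon-induced factor, was -0.28 (adjusted p = 0.0008) in MRC5_coH196 and 0.45 (adjusted p = 4.99e-05) in MRC5_coH69 cells, a difference of -0.73 (adjusted p = 5.48e-10) between the partners.

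Over the 9 MRC5 libraries, 9226 genes with a mean of at least 10 CPM were compared with SERPING1. The patterns of log2 CPM most like it were those of LOXL2, JMY and RIC1 (Pearson r of 0.997 to 0.999). Of the 9226 genes, 2287 had an r above 0.9, so a close likeness was common. The libraries lie in 3 groups set apart by their level of SERPING1, so the likeness reflects mainly the order and spacing of the groups. LOXL2 was 1.22 in MRC5_coH196 and 0.37 in MRC5_coH69 on the log2 scale, both smaller than SERPING1.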

How the data were processed

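Libraries of MRC5 (9) and H196 cells (6) were read on the BGIseq-500 platform. The authors used SOAPnuke for read cleaning, HISAT for alignment to the genome (build GRCh38.p13) and Bowtie2 for alignment to reference genes. The submitters' processing notes also name HISAT2 2.1.0, Bowtie2 2.3.4.3 and RSEM 1.3.1. The deposited expected counts are unnormalized estimates per gene, and all values of the 9 genes were whole numbers. The authors' deposited FPKM values are scaled per library and per kilobase. Their own comparisons (fold changes and p-values in 9 and 3 columns) and 18 and 12 other per-library columns were not used.

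Counts were rounded and fitted with edgeR 4.0.16 (R 4.3.3) after TMM scaling and filterByExpr, in a model of 9 MRC5 libraries, one of 6 H196 libraries, and one of all 15 over 15320 genes in both tables. Quasi-likelihood tests were two-sided, with Benjamini-Hochberg adjustment over all genes tested. Standard errors are the log2 fold change over the square root of F, and 95% intervals assume normality. Alternatives used DESeq2 1.42.0 and limma 3.58.1. The genes, lists and motifs were chosen with earlier results of these data known. Beyond the 9 genes, DEGs of the wider complement list, at most 4 control genes and the 3 nearest patterns were named by rule. CLU, C1RL and RELA were named after their values were seen. The labels do not say whether replicate numbers pair the libraries, and the main models used no pairing.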

Additional observations from a re-analysis of the deposited data

Results flagged for a closer look

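SERPING1 and CD46 were flagged because their change differed between MRC5 and H196 cells as partners in co-culture, by the test of the difference itself. The response of MRC5 cells to H196 cells minus that of H196 cells to MRC5 cells was 2.02 on the log2 scale for SERPING1 and 0.50 for CD46 (edgeR's quasi-likelihood test, adjusted p = 5.76e-06 and 1.28e-05). They were 2 of the 9 genes, where 24.1% of all genes tested were called in that direction and 51.2% in either. Passing this test therefore does not set the 9 genes apart from genes at large. SERPING1 was higher in 3 of 3 MRC5_coH196 libraries than in every MRC5_Mo library, while its H196 libraries overlapped at 10 to 34 counts. CD46 was higher in 3 of 3 MRC5_coH196 libraries and lower in 3 of 3 H196_Co libraries than in each library of the mono-culture. The gap in H196 cells was narrow, at 89.7 against 91.0 CPM for the nearest libraries. The H196 value of -0.17 did not pass edgeR's test (adjusted p = 0.112), though on log2(FPKM + 1) by limma it was -0.24 (adjusted p = 0.0312). The cause of either difference was not tested.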

How the results depend on the processing

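SERPING1 kept its direction and its call in MRC5_coH196 and MRC5_coH69 cells under every alternative run, with log2 fold changes of 2.45 to 2.76 and 0.71 to 0.77. In MRC5_coH69 cells 1 of the 9 genes was higher instead of 3 with a DESeq2 Wald test, on log2(FPKM + 1) and on log2(FPKM + 0.1), 2 with DESeq2 size factors and with only the groups compared, and 1 to 3 when a library was left out. All genes changed there numbered 859, 404 on log2(FPKM + 1), 386 on log2(FPKM + 0.1), and 384 to 1015 with a library left out. Between the partners of MRC5, 0 genes instead of 2 were lower with the Wald test, and 1 to 2 with a library left out. In H196_Co cells 1 gene instead of 0 was lower on both FPKM scales. With a library left out, 1 to 3 genes were higher there and 1559 to 2723 genes changed in all. In the comparison of responses 1 gene, CFB, passed as lower on log2(FPKM + 0.1) by limma, at -0.73 (adjusted p = 0.0188). CFB entered that model only through its MRC5 counts and had 1 to 4 counts per H196 library. No difference of response can be read from it.

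None of the values that turned sign had passed the test. In MRC5_coH196 against MRC5_Mo, C1R was -0.080 on both FPKM scales, where the median of all genes was -0.13 and -0.18. There C1S was -0.097 to 0.11 and CFB -0.19 to 0.22 with a library left out, the sign turning without replicate 1 of MRC5_Mo for both and without replicate 3 of MRC5_coH196 (0.0027) for C1S. In MRC5_coH69, CD46 was -0.020 to 0.063 (negative without replicate 1 or 3 of MRC5_coH69) and CFB -0.19 to 0.22 (positive without replicate 1 of MRC5_Mo). Between MRC5_coH196 and MRC5_coH69, CFB was 0.0074 with DESeq2 size factors, 0.0039 with the Wald test, 0.0019 with at least 10 counts in every library, and -0.063 to 0.057 with a library left out. C3 was -0.017 to 0.76 (negative without MRC5_coH69 replicate 1 or 2). In the comparison of responses, C1S was -0.11 and -0.036 on the FPKM scales and -0.018 to 0.19 with a library left out (negative without MRC5_Mo replicate 3), and C3 was 0.15 on log2(FPKM + 1) against -0.69. The cause was not tested.

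Within each cell line, the same-numbered libraries did not deviate together (correlations up to 0.081). Such correlations between MRC5 and H196 libraries were not examined. With the replicate number as a block 9412, 769 and 2076 genes changed in MRC5_coH196, MRC5_coH69 and H196_Co cells, and no call of the 9 genes changed. Leaving out each library for the ratio of SERPING1 to C1R was chosen after seeing the data and gave differences of 2.46 to 2.68 and 0.36 to 0.57 against MRC5_Mo. Depth limits C3 and CFB in H196 cells, which had 1 to 13 counts.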
